A study of Pinus pinaster with 30 samples.

Results

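Of the 26496 cDNA spots on the array, 56 were taken as cytochrome P450, peroxidase and redox spots of the maritime pine (*Pinus pinaster*) embryo. They are the spots in the study's tables of transcripts that changed during embryogenesis whose Arabidopsis or NCBI description holds cytochrome p450, peroxidase, peroxiredoxin, thioredoxin, glutaredoxin, laccase, ascorbate oxidase, catalase or superoxide dismutase. The tables were built on these same samples, 45 of the 56 spots being in the time course table, 20 in the table of stage-to-stage transitions and 9 in both. The time course table was at hand only in part, with 1631 spots in the order of their profile clusters, so that profiles of later clusters entered only through the transition table. Every day-to-day value below therefore belongs to what chose the spots, and is given as a description with no test of its own. By description the 56 spots were 23 cytochromes P450, 20 class III peroxidases, 2 glutathione peroxidases, 3 spots of catalase, catalase peroxidase or superoxide dismutase, 4 thioredoxins and glutaredoxins, 2 laccase and ascorbate oxidase-like spots, and 2 that matched by wording only. The last pair is a chorismate mutase and a dioxygenase that acts with 2-oxoglutarate. No peroxiredoxin was found.

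Cytochromes P450 are haem enzymes, mostly of the endoplasmic reticulum, that insert oxygen into lipids, phenolics, terpenoids and hormones, with electrons passed on by a P450 reductase. Class III peroxidases are secreted plant enzymes that use hydrogen peroxide to oxidise phenolics such as monolignols, and so take part in the stiffening and loosening of cell walls. Superoxide dismutase, catalase and glutathione peroxidase remove reactive oxygen, while thioredoxins and glutaredoxins reduce disulfide bonds in other proteins. In seeds these systems are known from the making of lignin, cutin, flavonoids and hormones during growth and from the redox changes of maturation and drying.

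Dominant zygotic embryos from cones of open-pollinated plus trees, 3-5 trees per date, were pooled by collection date into Day0 (early embryos, stages T0, T1 and T2), Day5 (pre-cotyledonary, T3 and T4), Day11 (early cotyledonary, T4B), Day15 (cotyledonary, T5) and Day25 (mature, T7). Each day had 3 biological replicates, which are separate RNA extractions from 1 collection, in part pooled to reach 60 embryos per sample, and each was hybridised on 2 arrays, giving 30. A difference between days therefore cannot be told apart from a difference between collections or between their trees. The dye Cy3 marked the embryos and Cy5 a pool of RNA from all 15 samples throughout, with no dye swap, so that a dye effect cannot be told apart from a level but is shared by all days. Values are log2 ratios of embryo over reference pool, where a difference of 1 is a doubling, and 0 is the level of the pool. A level in pooled embryos cannot tell fewer cells of a type apart from less RNA per cell, and spots of cDNA from gene families can share signal between close relatives.

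The quality marks kept 10860 to 18676 spots per array, and 14513 spots kept 2 or 3 samples on each day and were tested with limma. The lowest correlation between 2 arrays over all spots was -0.483, and that of Day0 with Day25 arrays had a median of -0.383; the dyes are stated in the labels, so the direction was kept. Among 21 spots with a late embryogenesis abundant, legumin or dehydrin description, which are also from the study's tables, 14 were tested. Of these 8 were higher and 6 lower on Day25 than on Day0, against 23.6% higher and 23.6% lower among all tested spots. The list was matched by words, and some of its spots are also described as harpin-induced or as structural constituents of the cell. Its directions are therefore not read as those of seed maturation proteins as a group. Spot 6.3.19.24, described as late embryogenesis abundant, went from -1.85 on Day0 to 1.11 on Day25, and spot 8.4.21.5, described as legumin, from 1.41 to -1.58. The 2 tested dehydrin spots and both tested legumin spots were among the 6 lower ones, and the other dehydrin and legumin spots were not tested. Legumin spots 8.4.21.5 and 10.3.23.10 carry the same unigene. With 8 spots of the list higher, no fall of storage or drying proteins in mature embryos is read from these few.

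Of the 56 spots, 37 were tested and 19 were not. All 37 had been called over the time course in the present fit (R-squared at or above 0.7 and a false discovery rate below 0.01), which called 28.0% of all tested spots, and nothing is read from this since the tables were made by the same kind of fit. From Day0 to Day25, 36 of the 37 were called at an adjusted p under 0.05, 20 higher and 16 lower on Day25, where 47.2% of all tested spots were called, 23.6% higher and 23.6% lower. In the same 36 the Day0 and Day25 samples did not overlap, as in 55.7% of all tested spots (27.7% higher and 28.1% lower on Day25). The median absolute difference between Day0 and Day25 was 1.25 among the members and 0.40 among all tested spots. Replicate spread was that of the array at large, with a median standard deviation between biological samples of 0.20 for the members and 0.20 for all tested spots.

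Among these chosen spots the classes were not alike in direction. Of the 17 tested cytochromes P450, 12 were higher and 4 lower on Day25, with a median difference of 0.87. Of the 11 tested class III peroxidases, 4 were higher and 7 lower, with a median of -0.97. The 3 tested thioredoxin and glutaredoxin spots were all lower, with a median of -1.52. The tested catalase peroxidase and superoxide dismutase were both higher. The median over all tested spots was -0.02, with 23.6% called higher and 23.6% called lower. The counts are of spots, and some of the higher P450 spots share a unigene. Whether the classes differ was not tested, since the spots were chosen by their changes. A direction by class also cannot be told apart from the part of the time course table at hand, which is ordered by profile.

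**Figure D1:**
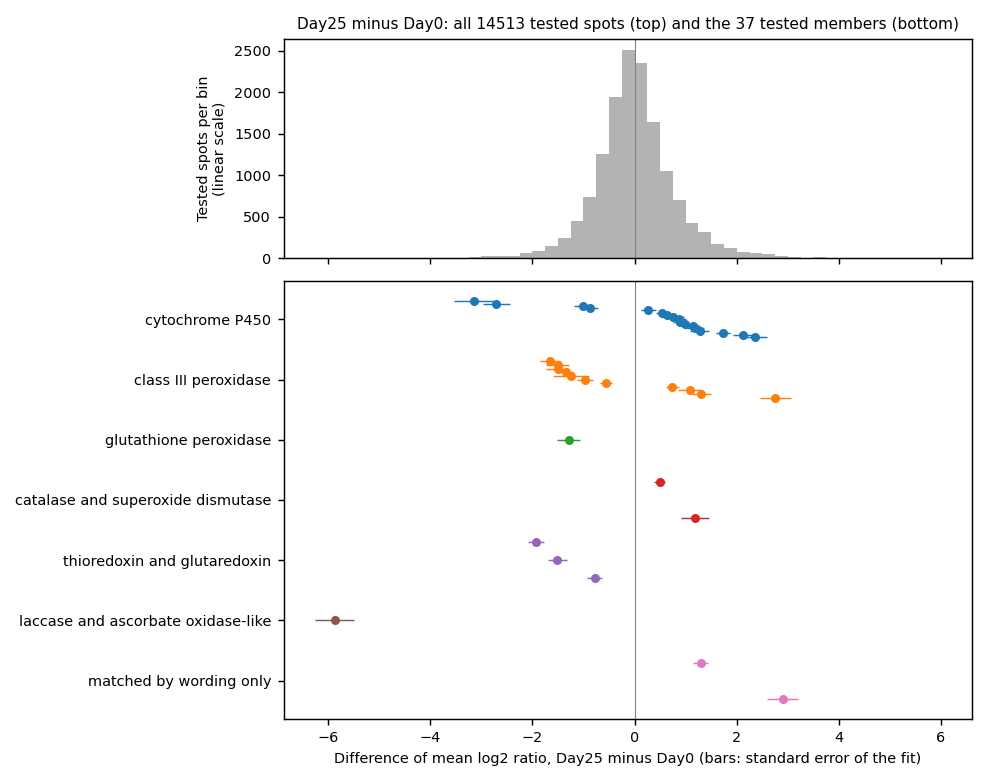
Difference of the mean log2 ratio between Day25 and Day0 for all 14513 tested spots (top, number of spots per bin of 0.25) and for the 37 tested members by enzyme class (bottom, points with the standard error of the fit). Most cytochromes P450 lie to the right of 0 and most class III peroxidases to the left, and the SKS5-like spot lies farthest left at -5.87.

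Between neighbouring days the members' calls sat mainly at both ends of the series. In the first interval, Day0 to Day5, 12 of 37 were called (4 higher, 8 lower), against 7.70% of all tested spots (2.94% higher, 4.76% lower). In the last, Day15 to Day25, 14 of 37 were called (12 higher, 2 lower), against 9.03% (5.53% higher, 3.50% lower). From Day5 to Day11, 5 were called (3 higher, 2 lower), against 1.58% (0.889% higher, 0.689% lower). Nothing is read from these counts, since the same intervals chose the spots. From Day11 to Day15, limma called 0 members and 0% of all tested spots, with 4 members and 857 spots at an unadjusted p under 0.05. Single samples weighed on these counts. Without Day5 replicate 1 the first count was 7. Without Day15 replicate 3 or Day25 replicate 2 the Day15 to Day25 count was 8, and without Day25 replicate 3 it was 9. The Day5 to Day11 count was 0 without Day5 replicate 3 or any 1 of the 3 Day11 samples, 2 without Day5 replicate 2 or Day15 replicate 1, and 3 without Day15 replicate 3, Day25 replicate 2 or Day25 replicate 3.

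Near the thresholds that chose the members, spots inside and outside the tables at hand overlapped in these values. Among members of the time course table the lowest R-squared were 0.74 (glutathione peroxidase spot 10.4.7.22) and 0.75 (F3'H-like spot 3.1.10.17), and among spots of the same unigene or the same Arabidopsis protein outside the tables the nearest below 0.7 was 0.60 (spot 12.1.11.22). Another 5 of those outside spots lay above 0.7, from 0.74 (spot 2.4.3.15) to 0.89 (spot 3.4.13.6), and whether the rest of the table lists them is not known here. The transition table asked for at least a 2-fold difference between consecutive days, a log2 difference of 1. Its tested members closest to that were spot 4.2.12.4 at 1.05 and spot 4.1.11.1 at 0.94, and the nearest member outside that table was the glutaredoxin spot 4.1.7.11 at 1.02.

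**Figure D2:**
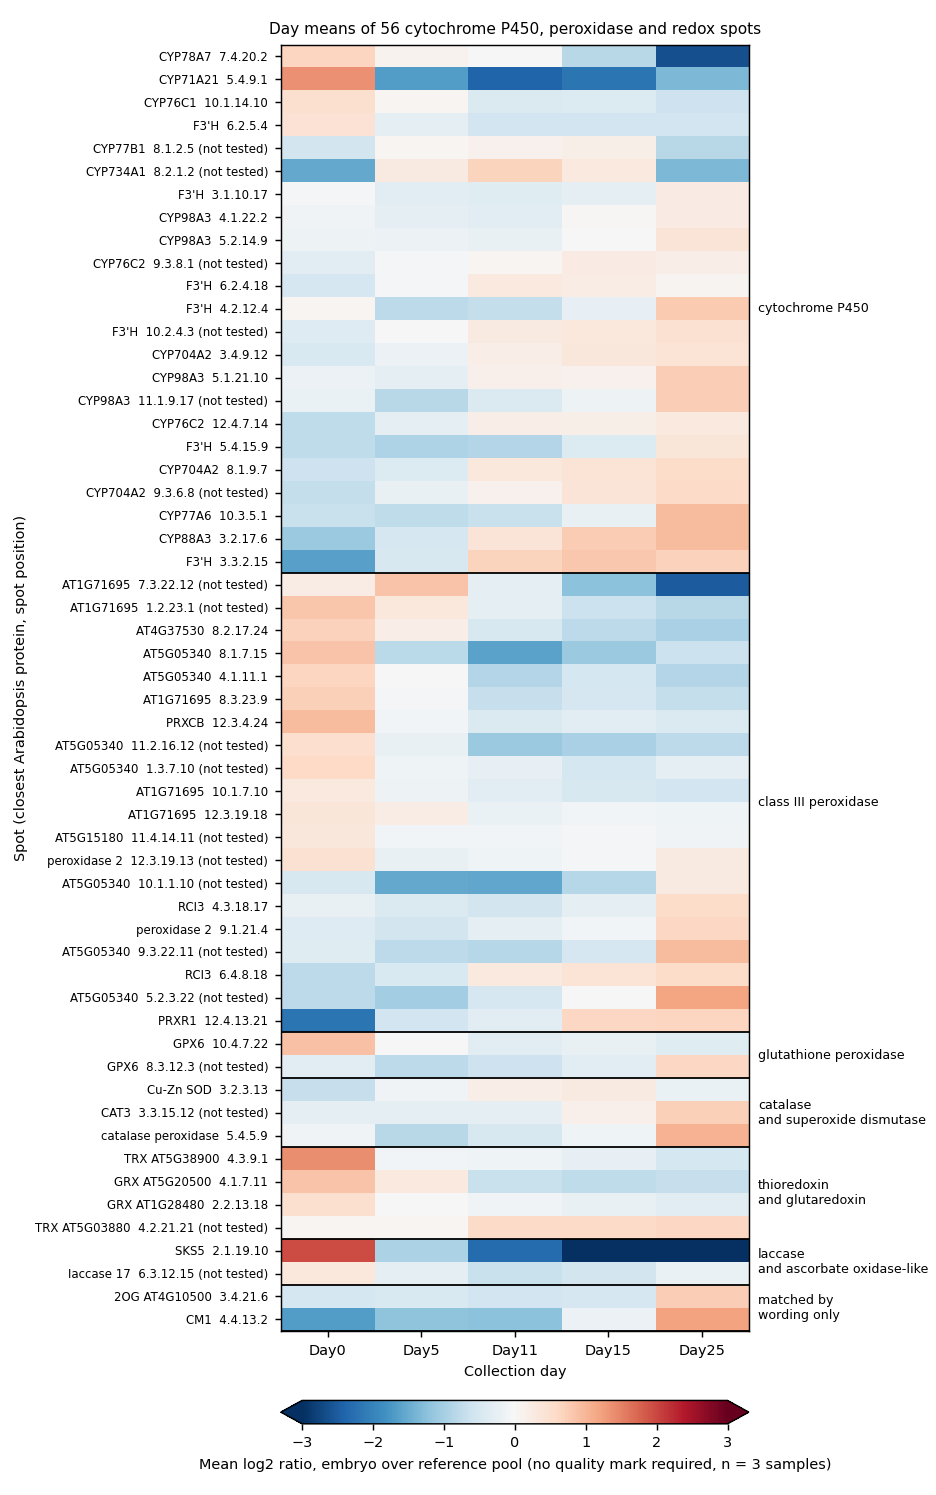
Day means of the log2 ratio of embryo over reference pool for all 56 spots (rows, named by closest Arabidopsis protein and spot position) on the 5 collection days (columns), with no quality mark required so that each mean has 3 samples; red is above and blue below the pool. Rows are ordered within each class by the difference between Day25 and Day0, and the 19 spots without enough marked values are labelled as not tested.

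Among the cytochromes P450, CYP98A3 and flavonoid 3-prime hydroxylase were the closest Arabidopsis proteins with the most spots. CYP98A3 is the Arabidopsis coumaroyl ester 3-hydroxylase of lignin synthesis, and 4 member spots carried 1 pine unigene with this closest protein. Spot 5.1.21.10 read -0.25, -0.24 and -0.07 on Day0, -0.02, -0.41 and -0.40 on Day5, 0.23, 0.03 and 0.11 on Day11, 0.09, 0.44 and 0.09 on Day15, and 1.20, 0.61 and 0.60 on Day25. Its 3 mature samples lay above all the others, and the step from Day15 to Day25 was 0.60 ± 0.17 (SE). Spots 4.1.22.2 and 5.2.14.9 stepped up by 0.79 ± 0.14 and 0.39 ± 0.12 over the same interval, so that all 3 tested spots of this unigene had their largest step there. Without the quality marks the Day0 to Day25 difference of spot 4.1.22.2 was 0.36 in place of 0.89. Spot 11.1.9.17 was not tested, having 1 marked sample on Day15, and its marked Day25 samples read 1.20, 0.61 and 0.20 against -0.26 and -0.20 on Day0.

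Flavonoid 3-prime hydroxylase (F3'H, TT7) adds a hydroxyl group to the B ring of flavonoids, ahead of the proanthocyanidins of the Arabidopsis seed coat. With 7 member spots over 6 unigenes, it was, beside the peroxidase AT5G05340, the Arabidopsis protein most often named as closest, and the spots followed several courses. By their NCBI descriptions 4 of the 7 (3.3.2.15, 5.4.15.9, 6.2.5.4 and 10.2.4.3) were flavonoid 3-hydroxylases, while 3.1.10.17, 4.2.12.4 and 6.2.4.18 were described as P450 enzymes of other families, so that F3'H-like below names the closest Arabidopsis protein alone. Spot 3.3.2.15 had the widest range. It read -1.91, -1.44 and -1.32 on Day0, -0.15 and -0.85 in the 2 marked Day5 samples, 0.86, 0.47 and 0.55 on Day11, 0.79 and 0.75 on Day15, and 0.98 and 0.64 on Day25. All samples from Day11 on lay above every earlier one, and 92.2% of the Day0 to Day25 difference of 2.36 ± 0.23 (SE) was present on Day11. Spot 5.4.15.9 read -0.48, -0.89 and -0.79 on Day0 and -0.78, -0.90 and -0.85 on Day11, then -0.35, -0.46 and -0.32 on Day15 and 0.12, 0.59 and 0.56 on Day25, so that its difference of 1.14 ± 0.14 came after Day11. Spots 4.2.12.4 and 3.1.10.17, which share a unigene, dipped in the middle. The means of spot 4.2.12.4 were 0.06 ± 0.42 on Day0, -0.77 ± 0.05 on Day5, -0.61 ± 0.46 on Day11, -0.23 ± 0.09 on Day15 and 0.82 ± 0.12 on Day25 (SD, n = 3 each). Spot 3.1.10.17 was the only tested member not called from Day0 to Day25, at 0.27 ± 0.14 (SE), and the only one whose Day0 and Day25 samples overlapped. Of the last 2 tested spots, 6.2.5.4 was lower on Day25 by 0.87 and 6.2.4.18 was higher by 0.63. The remaining spot, 10.2.4.3, was not tested and had means without the marks of -0.38 on Day0 and 0.45 on Day25.

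**Figure D3:**
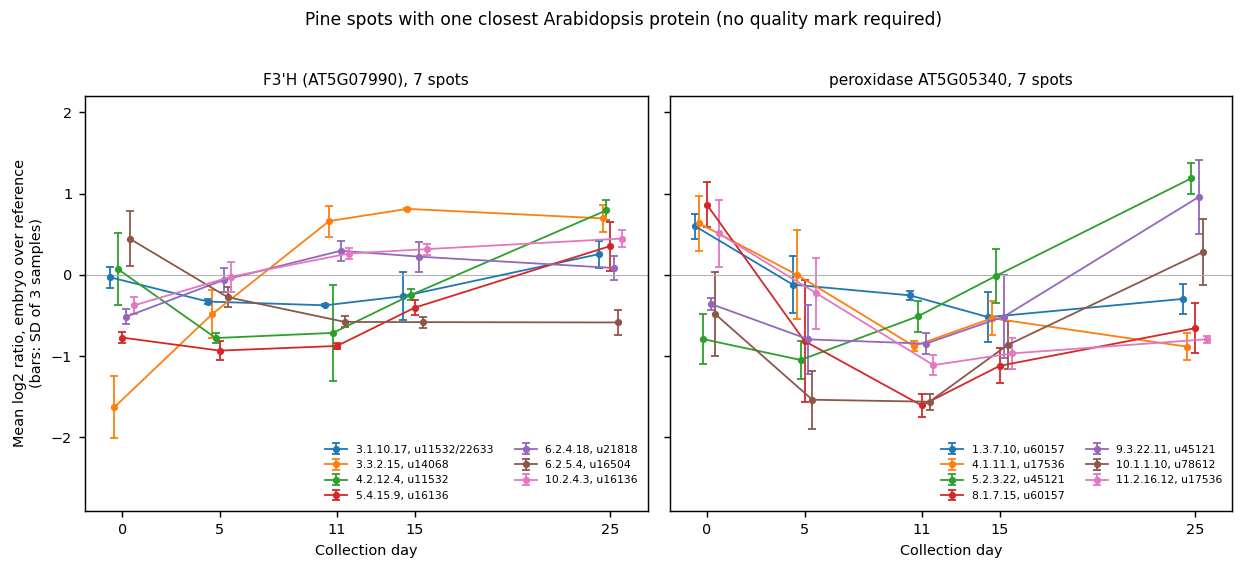
Mean log2 ratio over the collection days for the 7 spots whose closest Arabidopsis protein is F3'H (left) and the 7 whose closest is the peroxidase AT5G05340 (right), with no quality mark required; bars are the SD of 3 samples and u gives the pine unigene. Of the F3'H spots 6 are higher and 1 is lower on Day25 than on Day0, and of the AT5G05340 spots 3 are higher and 4 lower.

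The P450 spots closest to enzymes of hormone pathways or of organ growth followed different courses. Spot 3.2.17.6 has ent-kaurenoic acid oxidase (CYP88A3), a step of gibberellin synthesis, as its closest protein. It read -1.09, -0.95 and -1.38 on Day0, 0.14, -0.79 and -0.88 on Day5, 0.54, 0.37 and 0.33 on Day11, 0.64, 0.93 and 0.65 on Day15 and 1.08, 0.87 and 1.03 on Day25. The Day0 samples were the lowest of all 15, Day5 replicate 1 stood above the other Day5 samples, and from Day11 the samples were all above 0. The difference between Day0 and Day25 was 2.13 ± 0.21 (SE), a 4.38-fold change. CYP78A7, whose description names no hormone, is a relative of KLUH, an Arabidopsis P450 enzyme of organ growth. Its pine spot 7.4.20.2 ran the other way. It read 0.67, 1.33 and 0.17 on Day0, 0.33 and 0.07 on Day5, 0.67, -0.45 and -0.34 on Day11, -1.45, -0.76 and -0.24 on Day15, and -2.50, -1.79 and -2.98 on Day25. The mature samples lay below all others, and the fall of 3.15 ± 0.38 (SE) was the deepest of the tested P450 spots. Of it 24.2% was present on Day11. CYP734A1 (BAS1) inactivates brassinosteroids by hydroxylation, and its spot 8.2.1.2 was not tested because no Day0 array was marked as kept. Without the marks its means were -1.53 ± 0.53 on Day0, 0.27 ± 0.07, 0.66 ± 0.06 and 0.29 ± 0.32 on Day5, Day11 and Day15, and -1.35 ± 0.27 on Day25 (SD, n = 3), with the 2 ends below the 3 middle days.

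CYP77A6 hydroxylates fatty acids for the cutin of Arabidopsis flowers. Its spot 10.3.5.1 read -0.90, -0.64 and -0.81 on Day0, -0.99, -0.73 and -0.88 on Day5, -0.65 and -0.80 on Day11, -0.34 and -0.48 on Day15, and 1.14, 1.02 and 0.67 on Day25. Only the mature samples were above 0, and the step from Day15 was 1.35 ± 0.16 (SE). The related CYP77B1 spot 8.1.2.5 was not tested, and its means without the marks were -0.55 on Day0, 0.06, 0.14 and 0.18 in the middle days and -0.82 on Day25. Spot 5.4.9.1, closest to CYP71A21, made the largest single step of the P450 spots. It read 1.85, 0.81 and 1.54 on Day0, -1.68, -1.91 and -1.40 on Day5, -2.03, -2.39 and -2.81 on Day11, -2.17, -2.44 and -1.94 on Day15, and -1.73, -1.01 and -1.16 on Day25. The early embryos stood alone above 0. The step to Day5 was -3.07 ± 0.26 (SE), and from Day15 to Day25 the spot regained 0.88 ± 0.26. The 2 tested CYP704A2-like spots were higher on Day25, spot 3.4.9.12 by 0.87 ± 0.13 and spot 8.1.9.7 by 1.18 ± 0.17, with 76% and 81.1% of this present on Day11. The CYP76C2-like spot 12.4.7.14, which also carries a unigene described as an F-box protein, was higher by 1.27 ± 0.18 with 2 marked samples on every day. CYP76C enzymes oxidise monoterpene alcohols in Arabidopsis. The remaining P450 members were the untested CYP704A2-like spot 9.3.6.8, which was higher by 1.30 without the marks, the CYP76C1-like spot 10.1.14.10, lower by 1.00, and the untested CYP76C2-like spot 9.3.8.1, which was higher by 0.54 without the marks.

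The timing of the higher P450 spots was close to that of the array at large, and nothing is read from it for this class. In 6 of the 12 at least 50% of the Day0 to Day25 difference was present on Day11, and in the other 6 less was, against 47.8% of the 3427 spots called higher on the whole array. These counts are of spots. Spots 4.1.22.2, 5.1.21.10 and 5.2.14.9 share a unigene, as do spots 3.4.9.12 and 8.1.9.7. The part of the time course table at hand, which is ordered by profile, also bears on these counts. For the 4 lower P450 spots, 3 had at least 50% by Day11, and CYP78A7 did not.

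**Figure D4:**
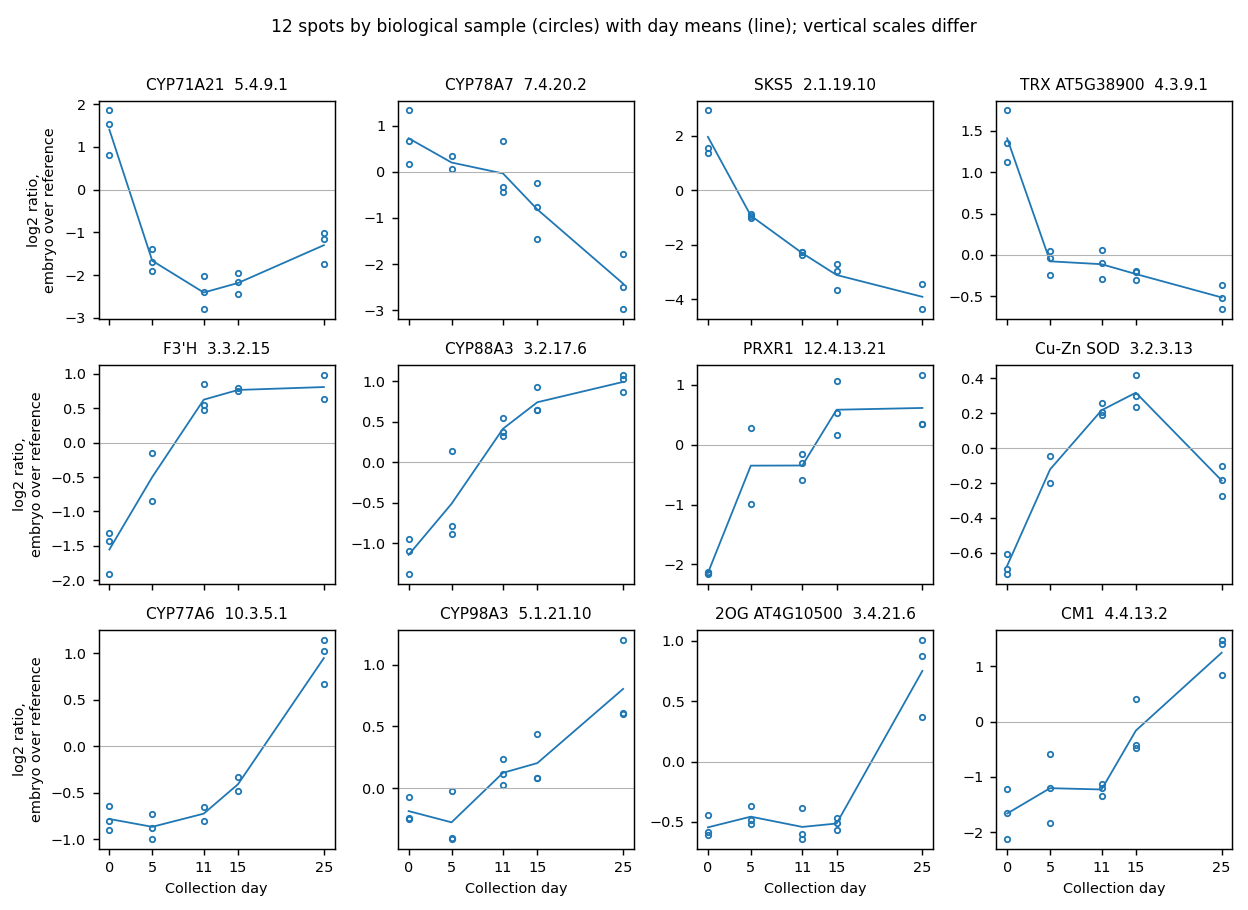
Log2 ratio of embryo over reference pool in each biological sample (circles) with day means (lines) for 12 members over collection days 0 to 25; the vertical scale differs between panels. The top row is highest on Day0, the middle row gains most before Day15, and the bottom row has its highest samples on Day25.

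The class III peroxidases were mostly highest in early embryos. All 7 lower peroxidase spots had at least 50% of their difference by Day11, as did 15 of the 16 lower members, against 54.6% of the 3429 spots called lower on the array. This share cannot be told apart from the part of the time course table at hand, which is ordered by profile. Spot 12.3.4.24, closest to the Arabidopsis peroxidase CB (PRXCB), read 1.06, 0.86 and 1.02 on Day0, 0.05 and 0.05 on Day5, -0.12 and -0.44 on Day11, -0.22, -0.47 and -0.38 on Day15 and -0.25, -0.43 and -0.39 on Day25. The early samples were set apart from all later ones, and the 3 last days lay together. Spot 8.2.17.24, closest to AT4G37530, had the largest fall of the tested peroxidases at -1.66 ± 0.20 (SE), in steps of -0.55, -0.52, -0.29 and -0.30. The spots closest to AT1G71695 were 5 in number and all lower on Day25. Their 3 tested spots were 8.3.23.9 at -1.50 ± 0.23, 10.1.7.10 at -0.97 ± 0.16 and 12.3.19.18 at -0.56 ± 0.12. Of the 2 untested ones, spot 7.3.22.12 had means without the marks of 0.22 ± 0.82 on Day0, 0.87 ± 0.80 on Day5 and -2.49 ± 0.12 on Day25 (SD, n = 3), and spot 1.2.23.1 went from 0.84 to -0.84.

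The 4 higher peroxidases among those tested had other closest proteins. PRXR1 spot 12.4.13.21 read -2.13, -2.16 and -2.14 on Day0, -0.98 and 0.29 on Day5, -0.59, -0.30 and -0.15 on Day11, 0.52, 1.07 and 0.16 on Day15, and 0.34, 0.34 and 1.16 on Day25. The early samples were low and close to each other, while the 2 Day5 samples were far apart. The Day0 to Day25 difference of 2.75 ± 0.30 (SE) was a 6.75-fold change. Both spots closest to RCI3, a peroxidase first found as induced by cold in Arabidopsis, were higher on Day25. Spot 6.4.8.18 gained 1.30 ± 0.19, of which 74.1% was present on Day11, and spot 4.3.18.17 gained 0.74, with its step of 0.83 after Day15. Peroxidase 2 spot 9.1.21.4 was higher by 1.09 ± 0.23. The other spot closest to peroxidase 2, 12.3.19.13, was not tested and was lower by 0.18 without the marks.

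The peroxidase AT5G05340 was the closest protein of 7 spots over 4 unigenes, of which only 2 were tested. Spot 8.1.7.15 read 1.00 and 0.49 on Day0, -0.94, -1.45 and 0.02 on Day5, -1.46, -1.70 and -1.60 on Day11, -1.11 and -1.11 on Day15, and -0.70 and -0.30 on Day25. It was lowest on Day11. The Day0 to Day25 difference of -1.25 ± 0.35 (SE) lost its call without Day0 replicate 1, at -0.99, or without Day25 replicate 2, at -1.05. Spot 4.1.11.1 was lower on Day25 by 1.51 ± 0.22, with its largest step of -0.94 ± 0.22 from Day5 to Day11. The untested pair 5.2.3.22 and 9.3.22.11, of 1 unigene, was high in mature embryos. Their marked Day25 samples were 1.30, 1.34 and 0.97 for the former and 0.43, 1.09 and 1.32 for the latter. No marked sample of the other days was above 0 in either, but these were few. Spot 5.2.3.22 had 1 marked Day15 sample, and without the marks its Day15 replicate 1 read 0.36. Spot 9.3.22.11 had 1 marked sample on Day5 and 1 on Day11. Spot 10.1.1.10 was lowest in the middle, at -1.54 and -1.56 on Day5 and Day11 without the marks, against -0.48 on Day0 and 0.28 on Day25. Spots 1.3.7.10 and 11.2.16.12, which share unigenes with spots 8.1.7.15 and 4.1.11.1, were not tested and were lower on Day25 by 0.89 and 1.30 without the marks. The other 2 untested peroxidases were spot 12.3.19.13 and spot 11.4.14.11, whose values without the marks were lower on Day25 by 0.18 and 0.44.

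The enzymes that remove reactive oxygen had few spots. Copper-zinc superoxide dismutase, which turns superoxide into hydrogen peroxide, was the only member with both a called step up at the start and a called step down at the end. Spot 3.2.3.13 read -0.69, -0.72 and -0.61 on Day0, -0.20 and -0.04 on Day5, 0.26, 0.21 and 0.19 on Day11, 0.42, 0.30 and 0.24 on Day15, and -0.18, -0.10 and -0.27 on Day25. Samples of Day11 and Day15 were above 0 and those of the other days below it. The first step was 0.55 ± 0.12 and the last -0.50 ± 0.11 (SE), and its technical arrays differed little, with an SD of 0.03. Catalase, which breaks down hydrogen peroxide, had the untested CAT3-like spot 3.3.15.12. Its only marked Day0 sample read -0.52, and its Day25 samples read 0.96, 0.67 and 0.54. The spot described as catalase peroxidase hpi, a bifunctional haem enzyme, had no Arabidopsis protein and no pine unigene given. Which pine gene it stands for, if any, is therefore not known here. Spot 5.4.5.9 read 0.34, -0.41 and -0.50 on Day0 and 1.07 and 0.92 in the 2 marked Day25 samples, with a step from Day15 of 1.18 ± 0.30.

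Glutathione peroxidase 6 of Arabidopsis (GPX6, which reduces lipid peroxides) was closest to 2 spots of different unigenes, and these ran in opposite directions. Spot 10.4.7.22 read 1.50, 0.53 and 0.67 on Day0, between -0.04 and 0.09 on Day5, and -0.51, -0.22 and -0.45 on Day25. Spot 8.3.12.3 was not tested, having 1 marked sample on Day15, and read 0.07, -0.43 and -0.55 on Day0, -0.49, -0.88 and -1.03 on Day5 and 0.37, 0.97 and 0.65 on Day25. The early embryos were thus highest in the former and the mature embryos in the latter.

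Thioredoxin and glutaredoxin spots were high in early embryos, other than 1. Spot 4.3.9.1, closest to AT5G38900 and described as a DsbA oxidoreductase, read 1.75, 1.35 and 1.13 on Day0, -0.04, 0.04 and -0.24 on Day5, 0.06, -0.10 and -0.29 on Day11, -0.30, -0.19 and -0.20 on Day15 and -0.37, -0.66 and -0.52 on Day25. Its step from Day0 to Day5 was -1.49 ± 0.15 (SE), and the later days differed by less. Glutaredoxin C4 spot 4.1.7.11 fell later. It read 1.09, 0.65 and 0.77 on Day0, 0.43, 0.29 and 0.26 on Day5 and -0.84, -0.73 and -0.51 on Day11, a step of -1.02 ± 0.18, and Day15 and Day25 had the means -0.81 ± 0.28 and -0.68 ± 0.35 (SD, n = 3). Spot 2.2.13.18, of a glutaredoxin (AT1G28480) whose Arabidopsis protein binds TGA transcription factors, was lower on Day25 by 0.78 ± 0.15 (SE). The thioredoxin family spot 4.2.21.21 was not tested, with 1 marked Day5 sample, and went from marked values of -0.08 and -0.10 on Day0 to 0.65 and 0.58 on Day25.

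The multicopper oxidase-like SKS5 spot had the largest fall of all tested spots on the array. SKS5 belongs with SKU5, a cell wall protein of directional root growth in Arabidopsis, and resembles laccases and ascorbate oxidase. Spot 2.1.19.10 read 2.93, 1.57 and 1.38 on Day0, had a mean of -0.93 ± 0.07 (SD, n = 3) on Day5, and read -2.28, -2.26 and -2.38 on Day11, -3.65, -2.70 and -2.97 on Day15, and -3.45 and -4.37 in the 2 marked Day25 samples. No sample of the first 3 days overlapped with another day, and Day15 and Day25 did. The fall of 5.87 ± 0.39 (SE) between Day0 and Day25 was a 58.5-fold change, and 72.7% of it was present on Day11. Only 2 arrays were marked as kept on Day25, and without the marks the difference was -5.65. Laccase 17 polymerises lignin in the Arabidopsis stem, and its spot 6.3.12.15 was not tested, with no marked value on Day15. Its marked Day0 samples read 0.65 and 0.23 and its Day25 samples -0.33 and -0.13, with the lowest values, -0.83 and -0.51, on Day11.

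The 2 spots matched by wording both gained late. Chorismate mutase sits where the path to phenylalanine and tyrosine branches off. Spot 4.4.13.2 read -1.21, -2.11 and -1.65 on Day0, -1.35, -1.12 and -1.21 on Day11, 0.41, -0.42 and -0.48 on Day15, and 0.85, 1.48 and 1.40 on Day25, with 14.9% of the difference of 2.90 ± 0.30 (SE) present on Day11. The dioxygenase spot 3.4.21.6 lay between -0.64 and -0.37 in all 12 samples up to Day15 and read 1.01, 0.87 and 0.37 on Day25. Its step of 1.26 ± 0.15 thus came in the final interval alone.

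Spots that carry the same pine unigene were aligned to the same pine sequence and read on the same arrays. They need not measure 1 transcript, and they are not replicates of the embryos. Among members, 8 unigenes had 2 or more spots, 19 spots in all and 15 pairs. All 15 pairs had the same sign between Day0 and Day25, and the Pearson correlation over their shared samples (8 to 15) had a median of 0.836, from 0.296 to 0.945, with 13 pairs at 0.7 or more. The sign is part of what chose these spots. The lowest was unigene 16136, where spot 5.4.15.9 gained after Day11 and spot 10.2.4.3 before it. In the CYP704A2-like unigene 12304 the 3 pairs had correlations of 0.88 to 0.94.

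Another 6 spots shared a unigene with a member but were not in the tables at hand, and did not enter by the rule. Of these 3 were tested, and limma called 1 of 3 from Day0 to Day25, at 47.2% of all tested spots. Spot 3.2.5.13, which shares a unigene with the CYP77A6-like spot, was higher on Day25 by 0.65 ± 0.16 (SE), with a first step of 0.48 and a last step of 0.22, and its own closest Arabidopsis protein was another one. Spot 3.1.17.12, with the unigene of the F3'H-like spot 6.2.5.4, differed by 0.06 ± 0.14, where its partner was at -0.87. Spot 7.2.23.18, with unigene 17536 of the AT5G05340 group, differed by -0.11 ± 0.12, where its partners were at -1.51 and -0.70. A spot that was not called is not thereby shown to be level between days. The untested PRXR1 spot 8.4.12.15 had 9 samples in common with its member, with a correlation of 0.996, and the untested CYP98A3 spot 2.4.21.6 was higher on Day25 by 0.78 without the marks. The catalase spot 1.1.9.23 had no marked value on Day25, and its marked means of 0.51 on Day0 and 0.42 on Day15 did not follow the gain of its member.

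**Figure D5:**
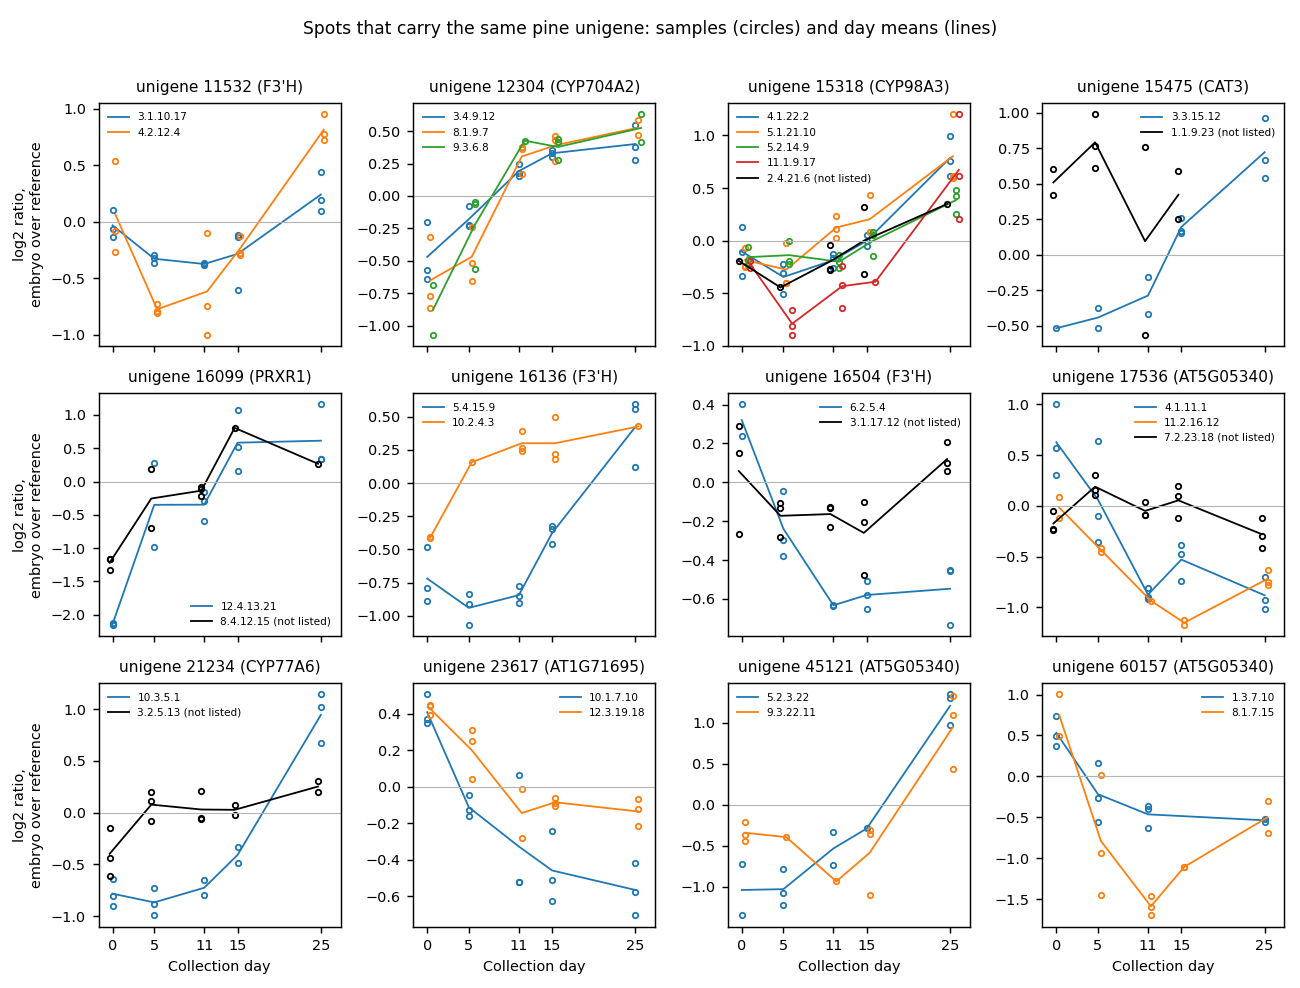
Log2 ratio by sample (circles) and day mean (lines) for spots carrying the same pine unigene, 1 panel per unigene with the closest Arabidopsis protein in brackets; black marks spots outside the study's tables, and vertical scales differ. The CYP98A3, CYP704A2 and PRXR1 panels show spots on like courses, while the black spots of unigenes 16504, 17536 and 21234 lie flatter than their members.

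A further 13 spots outside the tables had the Arabidopsis protein of a member as closest but another unigene, of which 9 were tested and 8 called from Day0 to Day25, 5 higher and 3 lower, where 47.2% of all tested spots were called, 23.6% higher and 23.6% lower. These, and 5 of the 6 spots above, came from a table ordered by the likeness of pine and Arabidopsis embryo profiles, so that they too were picked on profile and their counts are not read against that share. Spot 7.1.19.14, a second SKS5-like sequence, was lower on Day25 by 2.51 ± 0.34 (SE), and the CAT3-like spot 3.4.13.6 was higher by 1.46 ± 0.17. The 2 tested AT5G05340-like spots, 2.4.3.15 and 5.2.23.9, were lower by 1.16 and 0.62. The F3'H-like spots again differed, with 2.2.17.12 higher by 0.59 ± 0.12 and 5.3.12.6 at -0.04 ± 0.18.

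Partners and pathway neighbours in the study's tables give the setting. Of 8 P450 spots that the wording of the rule missed, 5 were tested and 4 were higher on Day25, among them allene oxide synthase (2.4.20.17, jasmonate synthesis) at 2.32 and ferulate 5-hydroxylase (1.4.11.17, also described as CYP736B) at 1.12. The fifth, spot 11.3.17.11, was lower, and its descriptions name a receptor-like kinase and a rotamase and not a P450 enzyme. Cinnamate 4-hydroxylase (9.4.6.1) was not tested and was higher by 1.75 without the marks. The spot of P450 reductase 2, which feeds electrons to these enzymes, also carries a unigene described as a pectate lyase, and the 2 cannot be told apart. This spot, 1.2.10.8, was at -0.62, -0.06, 0.50, 0.51 and 0.10 over the 5 days. Of 15 spots for P450 reductase, respiratory burst oxidases, ferritin, germin-like proteins, quinone reductases and metallothionein, 13 were tested, 7 higher and 6 lower on Day25. Respiratory burst oxidases make superoxide at the plasma membrane, and both tested spots, 1.4.4.12 (RBOHD) and 12.1.20.12 (RBOHF), were higher, by 1.59 and 0.83, whereas all 4 quinone reductase spots were lower, by 1.58 to 3.14. Of 38 phenylpropanoid and flavonoid spots 31 were tested, 16 higher and 12 lower. Spots described as chalcone synthase, the entry to flavonoids, were higher on Day25, such as 2.1.13.18 by 1.33 and 5.4.13.8 by 1.32, while spot 5.4.3.1, described as a stilbene synthase, was lower, at -2.36. Leucoanthocyanidin dioxygenase gained before Day11 like F3'H spot 3.3.2.15, with means of spot 10.2.12.6 at -1.44, -0.40, 0.22, 0.33 and 0.77. Of all tested spots 47.2% were called from Day0 to Day25, 23.6% higher and 23.6% lower. All these lists are from tables of changed spots and were matched by words of their descriptions. They share spots such as those of ferulate 5-hydroxylase and cinnamate 4-hydroxylase. Spots of the same unigene are counted apart, such as quinone reductase spots 2.3.11.15 and 6.4.5.2. The counts of these lists carry no test and are not read against the shares of all tested spots.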

How the data were processed

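PtGen2 cDNA arrays of loblolly pine were hybridised with 15 samples of embryo RNA (Cy3) against a common reference pool (Cy5). Spot and background intensities were deposited by the authors without normalization, with quality marks; the log2 ratios deposited by the authors, made with print-tip loess and cyclic loess, were used as an alternative (correlation per array 0.993 to 0.999). No column held another sample. The fits used limma 3.58.1 (R 4.3.3; statmod 1.5.0 for the technical correlation). Log2 ratios without background correction were normalized by loess over 48 print tips (span 0.3, 4 iterations) and cyclic loess over both channels (3 iterations). Values without both marks were left out, unless stated, and technical replicates averaged; the number of arrays limits the precision. A spot was tested with at least 2 values on every day, on a quadratic curve over days and on day means in 1 fit, with Benjamini-Hochberg adjusted p under 0.05 over all tested spots, after checks on simulated data. The p-values measure the spread between extractions from pooled embryos.

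Members, classes and lists were chosen with earlier results of these data known. Named were all members of classes of at most 5, the 8 P450 and 8 class III peroxidase spots with the widest range of day means, and all spots sharing a unigene; other spots are singled out after their values were seen. Names are those of the closest Arabidopsis or NCBI protein in the study's annotation of the loblolly pine sequences.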

Additional observations from a re-analysis of the deposited data

How the results depend on the processing

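The direction of the Day0 to Day25 difference of the 33 named and tested spots was the same under every alternative run. Of 307 values under other settings 304 kept their side of the threshold, the exceptions being superoxide dismutase spot 3.2.3.13 with 1 loess per array (0.32), peroxidase spot 8.1.7.15 with scaled log2 ratios (-1.02) and CYP98A3-like spot 4.1.22.2 without the quality marks (0.36). Of 495 values with 1 sample left out 493 did. Leaving out 1 sample, with the same spots tested, gave 36 to 37 members called over the time course, 7 to 12 from Day0 to Day5, 0 to 7 from Day5 to Day11, 0 to 0 from Day11 to Day15, 8 to 14 from Day15 to Day25 and 35 to 36 from Day0 to Day25. The Day5 to Day11 count moved from 5 to 3 with normexp background correction (offset 50), with 1 loess per array and with the dimmest spots left out (under the 0.25 quantile of signal), and to 8 with all 30 arrays and an estimated technical correlation. With no quality mark required all 56 spots were tested, and 20 were called from Day0 to Day5 and 9 from Day5 to Day11. With values asked for in all 3 samples on every day, 18 members were left, of which 18 were called over the time course, 4 from Day0 to Day5, 3 from Day5 to Day11, 9 from Day15 to Day25 and 17 from Day0 to Day25; here fewer spots were tested. Other causes were not tested. The labels give samples of different days the same replicate numbers but no shared origin. Deviations from the day means of same-numbered samples correlated from -0.37 to 0.48, and 5 of 15 samples were nearest to one of their own number, so the numbers were not taken as pairs. With the replicate block the counts were 37 over the time course and 11, 5, 0, 12 and 36 from Day0 to Day5, Day5 to Day11, Day11 to Day15, Day15 to Day25 and Day0 to Day25. The 19 untested spots had 10 to 20 of 30 arrays kept and were limited by the quality marks. Their median log2 Cy3 intensity ran from 7.84 (spot 11.2.16.12) to 14.1 (spot 10.2.4.3). Most of them lay below the median of 11.57 over all spots of the array. The class III peroxidase members, tested or not, had a median of 9.59, and their ratios were taken without background correction. The sign of the Day0 to Day25 difference was the same with and without the marks in all 18 untested spots that could be compared. Both sets of values come from the same arrays, so this is not separate support for these spots.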
